A study of Mus musculus with 5 samples.

Results

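The genes described here are 10 members of the YAP-TEAD and SRF pathways, namely *Ctgf*, *Cyr61*, *Thbs1*, *Ankrd1*, *Amotl2*, *Ajuba*, *Yap1*, *Wwtr1*, *Tead1* and *Srf*, out of 46078 genes in the table of each library. They were picked by name, as Hippo effectors and their adhesion- and stretch-responsive targets, with earlier values of the same comparison in view, so their levels are given as a description with no test. All 10 were found by symbol, and 9 had a mean of at least 1 TPM (a gene's length-corrected share of all transcripts in a library). The tenth, *Ankrd1*, was listed at 0 TPM in all 5 libraries. By TPM, *Ctgf*, *Thbs1*, *Amotl2* and *Cyr61* were lower in every 8 h library than in either 1 h library, as 9.43% of all genes tested were. Their group means were between 2.13-fold (*Cyr61*) and 6.12-fold (*Ctgf*) lower at 8 h. The levels of *Yap1*, *Wwtr1*, *Tead1*, *Srf* and *Ajuba* overlapped between the time points. By read counts, those of *Amotl2* overlapped as well, through a single 8 h count column that matched none of the TPM tables well.

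The libraries came from cells of the subventricular zone (SVZ), the neural stem cell niche along the lateral ventricles, of adult C57BL/6 mice, which the labels give as female and 5 to 8 weeks old. The methods of the study give an older age. All cells were grown as neurospheres with EGF and FGF, dissociated and plated on poly-D-lysine. PBS was given as a sham exposure the day after plating, with no genetic change in either group. The study's methods plate SVZ cells in a medium that holds fetal bovine serum. RNA was collected 1 h after PBS in 2 libraries (replicates 1 and 2) and 8 h after PBS in 3 libraries (replicates 13, 14 and 15). The cells are thus a growth factor-expanded primary culture rather than tissue, and by their labelled condition the 2 groups differ in time alone. There were no untreated cells among the libraries used here, and libraries exposed to hydrogen peroxide were not analysed here. In bulk RNA, fewer cells that express a gene and less RNA per cell cannot be told apart.

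In the Hippo pathway, the kinases MST and LATS phosphorylate YAP (encoded by *Yap1*) and TAZ (encoded by *Wwtr1*), which holds both proteins in the cytoplasm. When cells spread, attach or are stretched, YAP and TAZ enter the nucleus and act as coactivators of the TEAD transcription factors, to which *Tead1* belongs, on targets such as *Ctgf*, *Cyr61*, *Ankrd1* and *Amotl2*. SRF is a transcription factor that binds CArG boxes and, with its actin-sensing cofactors MRTF-A (*Mkl1*) and MRTF-B (*Mkl2*), drives cytoskeletal genes. Both systems share targets, and YAP and TAZ are known as regulators of neural stem cell growth.

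The labels carry library identifiers in 2 number series, and series 1 holds both 1 h libraries and 8 h replicate 14, whereas series 2 holds 8 h replicates 13 and 15. All animals are labelled female, but the libraries of series 1 had *Xist* at 0.0285 to 0.0611 TPM and a summed level of Y-linked genes of 137.6 to 180.9 TPM, against *Xist* at 165.3 and 199.7 TPM and Y-linked genes at 0.0253 and 0 TPM in 8 h replicates 13 and 15. Mitochondrial transcripts made up 10.7 to 11.1% of TPM in series 1 and 6.23 to 6.30% in series 2. By the labels, time and identifier series can therefore be told apart only through 8 h replicate 14. Each member is given below in that library and in replicates 13 and 15 separately. Series is that of the labels throughout, and for the 8 h TPM tables it is uncertain. The 8 h count columns, which carry the identifiers, do not follow the TPM tables of the same replicate, as given below. The part of sex, mitochondrial share and identifier series in the differences between the libraries was not tested beyond these values.

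The cells carried the markers of the labelled cell type. All 9 neural stem and precursor markers were above 1 TPM, with a summed level of 11683 to 15110 TPM, led by *Fabp7* and *Vim* and including *Nes* at 690 to 784 TPM. Markers of cells in which *Ctgf*, *Cyr61* and *Thbs1* are known to be high were low or absent, apart from *Flt1*. Of 5 endothelial markers 2 passed 1 TPM, *Flt1* at 9.71 to 13.6 TPM and *Kdr* at 1.07 to 1.97 TPM. The 5 summed to 11.8 to 15.4 TPM, with *Cdh5* and *Cldn5* at 0. None of 7 pericyte and fibroblast markers passed (summed 0.769 to 1.84 TPM, with *Lum* at 0). That list does not hold the smooth muscle actin gene *Acta2*, which is given below. Of the other lists, 0 of 5 microglial, 1 of 4 ependymal, all 5 neuronal and 3 of 4 oligodendrocyte markers passed. Oligodendrocyte markers had summed levels of 164.0 and 115.3 TPM at 1 h, against 35.5, 112.8 and 69.1 TPM for replicates 13, 14 and 15. The ependymal factor *Foxj1* stood at 22.4 and 26.7 TPM at 1 h and 17.2, 15.4 and 14.4 TPM at 8 h. Neuronal markers summed to 68.3 and 68.1 TPM at 1 h and to 43.2, 62.4 and 46.4 TPM at 8 h. No marker of any list was called between the time points by limma, with 3 (*Foxj1*, *Tubb3* and *Mbp*) at an unadjusted p under 0.05, and the part of these cells in the differences below was not tested.

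The sequence just before a transcript start is shown first, because TEAD factors and SRF reach their targets through short DNA words. RefSeq windows (GRCm38.p6, 250 bases before the transcript start) were matched for 7 members, and *Ctgf*, *Thbs1* and *Tead1* had no entry. The windows were searched on both strands for GGAATG, which reads CATTCC on the other strand and is the core of the TEAD binding word. The CArG box was searched as CC, then 6 bases of A or T, then GG. GGAATG occurred in 6 of the 7 members' windows, against 12.6% of 32851 windows of the same length. The only member window without it was that of *Srf*. *Cyr61*, a textbook YAP-TEAD target, is shown whole (chr3:145649986-145650235, minus strand, written 5′ to 3′ along the gene), with CATTCC in capitals starting 103 bases before the start.
*Cyr61*: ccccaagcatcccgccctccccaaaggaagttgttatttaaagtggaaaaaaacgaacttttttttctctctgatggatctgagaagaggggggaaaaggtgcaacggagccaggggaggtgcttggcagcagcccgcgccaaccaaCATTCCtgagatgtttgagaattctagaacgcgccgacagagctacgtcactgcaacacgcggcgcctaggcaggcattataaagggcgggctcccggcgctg

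The CArG box was found only in the window of *Srf*, which held 2 matches, against 1.47% of all windows with any. *Srf* is known to be a target of its own protein. Its window is shown from 250 to 14 bases before the start (chr17:46556176-46556412, minus strand), with the CArG boxes in capitals, starting 82 and 62 bases before the start.
*Srf*: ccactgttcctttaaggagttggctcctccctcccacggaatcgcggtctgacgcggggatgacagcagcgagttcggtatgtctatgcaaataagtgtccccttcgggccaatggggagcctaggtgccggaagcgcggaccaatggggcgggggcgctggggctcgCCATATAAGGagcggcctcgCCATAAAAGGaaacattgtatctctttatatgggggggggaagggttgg

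For the other members, 30 bases around the TEAD word are shown, with the word in capitals. The word lies at -65 in *Amotl2* (chr9:102717727-102717756, plus strand), at -186 and -164 in *Ajuba* (chr14:54577819-54577848, minus strand), at -141 in *Yap1* (chr9:8004720-8004749, minus strand) and at -136 in *Wwtr1* (chr3:57576029-57576058, minus strand), counted in bases from the transcript start. *Ankrd1* has it at -210 (chr19:36120037-36120066) and at -123 (chr19:36119950-36119979), on the minus strand. The words of *Ankrd1* and *Amotl2* fall in an annotated exon (GENCODE vM21), and the others fall outside exons. The window of *Amotl2* (chr9:102717554-102717803) lies inside the gene, before an internal transcript start, and 136 of its 250 bases are exonic.
*Amotl2*: ctgaaactctcaCATTCCtggcatagcagc
*Ajuba*: aCATTCCacagtgcccctccgcgCATTCCa
*Yap1*: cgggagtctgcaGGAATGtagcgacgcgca
*Wwtr1*: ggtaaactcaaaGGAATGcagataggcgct
*Ankrd1*, first word: gtcactgccaaaGGAATGaccctctcacat
*Ankrd1*, second word: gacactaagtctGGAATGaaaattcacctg

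These matches are letters in a window and no measure of binding. They do not sort the members by level either: *Cyr61* and *Amotl2*, lower at 8 h, and *Ajuba*, *Yap1* and *Wwtr1*, whose time points overlap, all carry the word, as does *Ankrd1*, which was listed at 0.

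*Ctgf* (ENSMUSG00000019997, chr10:24595442-24598683, plus strand) encodes CCN2, a secreted matricellular protein and a widely used readout of YAP activity. Its level was 18.8 and 17.6 TPM in 1 h replicates 1 and 2, and 2.65, 3.54 and 2.74 TPM in 8 h replicates 13, 14 and 15. The groups did not overlap, and the highest 8 h library stood at 19.5% of the 1 h mean. The means were 18.2 ± 0.831 TPM (SD, n = 2) at 1 h and 2.97 ± 0.493 TPM (SD, n = 3) at 8 h, a 6.12-fold lower level. On the log2(TPM + 1) scale, which understates the difference of low genes, the 8 h level was -2.28 ± 0.16 (SE) from that at 1 h. It was -2.08 in 8 h replicate 14 and -2.38 in replicates 13 and 15. The deposited per-base coverage of the gene was 38.0 and 43.5 reads at 1 h and 6.64, 9.32 and 5.47 reads at 8 h, so that the low group still rested on several reads per base.

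*Thbs1* (ENSMUSG00000040152, chr2:118111876-118127133, plus strand) encodes thrombospondin-1, a matrix glycoprotein that binds integrins and activates latent TGF-β. It was the least abundant of the 9 detected members. It stood at 10.03 and 9.59 TPM at 1 h and at 2.52, 1.36 and 2.45 TPM in 8 h replicates 13, 14 and 15, again without overlap. The means were 9.81 ± 0.313 TPM (SD, n = 2) and 2.11 ± 0.648 TPM (SD, n = 3), 4.66-fold lower at 8 h, with a log2 difference of -1.82 ± 0.23 (SE). Unlike that of *Ctgf*, its lowest level was in 8 h replicate 14, at -2.20 on the log2 scale against -1.63 in replicates 13 and 15.

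*Amotl2* (ENSMUSG00000032531, chr9:102716672-102733418, plus strand) encodes an angiomotin-like scaffold that binds and holds back YAP, and is itself a YAP-TEAD target. It stood at 36.3 and 36.5 TPM at 1 h and at 12.8, 14.6 and 18.0 TPM in 8 h replicates 13, 14 and 15. The mean of 36.4 ± 0.134 TPM (SD, n = 2) at 1 h was 2.40-fold above that of 15.1 ± 2.62 TPM (SD, n = 3) at 8 h, and the log2 difference was -1.22 ± 0.16 (SE). The 8 h libraries of the 2 identifier series were alike, at -1.26 in replicate 14 and -1.20 in replicates 13 and 15.

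*Cyr61* (ENSMUSG00000028195, chr3:145646976-145649981, minus strand) encodes CCN1, the closest relative of CCN2 among the members and an immediate early matricellular protein. Its level at 1 h was 38.7 and 34.4 TPM, against 12.5, 23.8 and 15.2 TPM for 8 h replicates 13, 14 and 15. The groups did not overlap, but replicate 14 lay between the 1 h libraries and the other 8 h libraries. The means were 36.5 ± 3.03 TPM (SD, n = 2) and 17.2 ± 5.86 TPM (SD, n = 3), 2.13-fold lower at 8 h, with a log2 difference of -1.09 ± 0.26 (SE). The difference was -0.60 in replicate 14, whereas replicates 13 and 15 stood at -1.34.

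**Figure D1:**
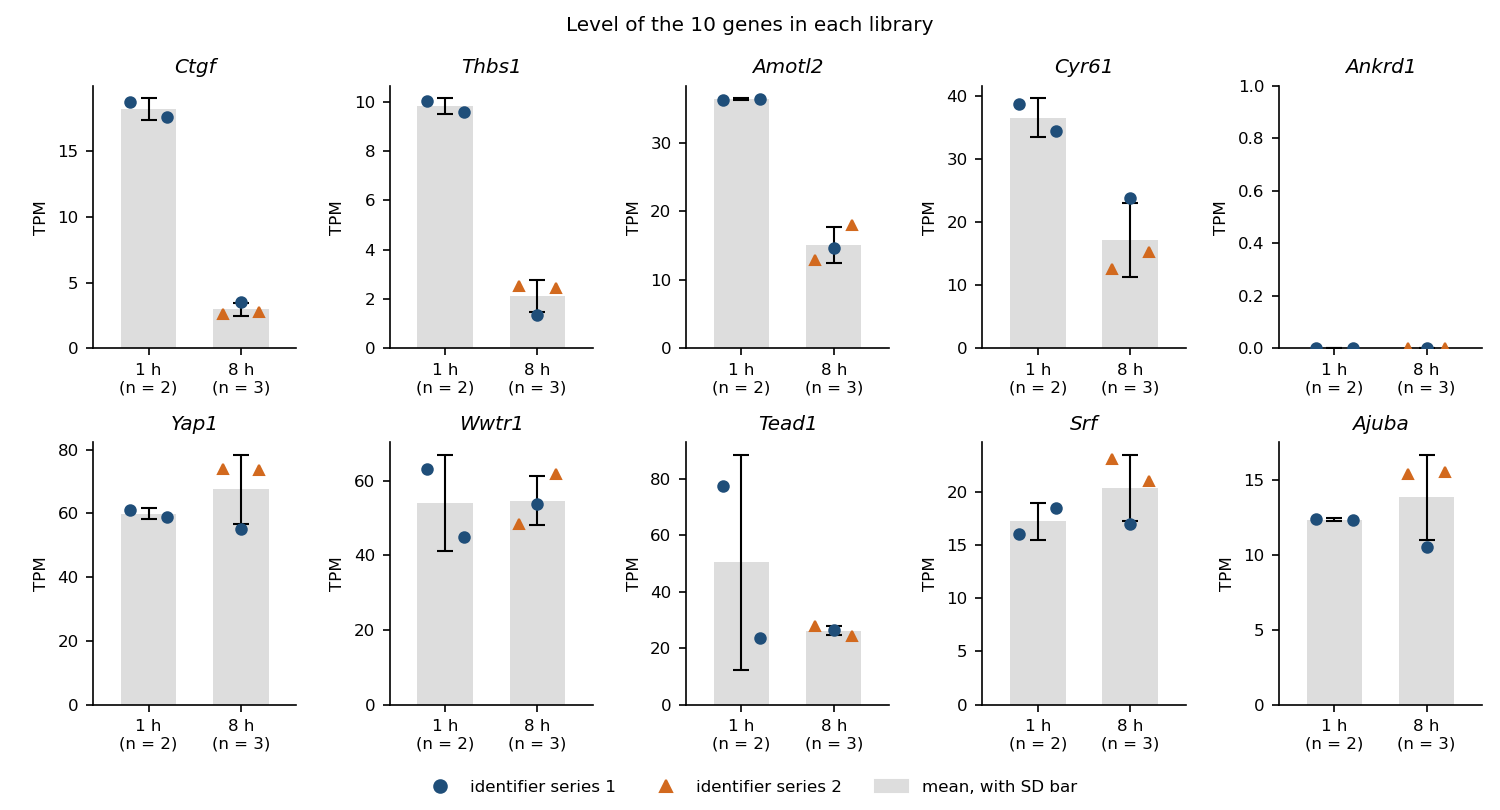
TPM of each member in each library, with 1 panel a gene, points coloured by identifier series, and bars for the mean and SD of the 1 h (n = 2) and 8 h (n = 3) libraries; each vertical axis starts at 0. All 8 h points of *Ctgf*, *Thbs1*, *Amotl2* and *Cyr61* lie below both 1 h points, and the single 1 h point of *Tead1* at 77.3 TPM sets its mean.

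Set against all 13870 genes tested, few genes stood lower: 12 had a lower log2 difference than *Ctgf*, 17 than *Thbs1*, 47 than *Amotl2* and 67 than *Cyr61*. Of all genes tested, 9.43% were lower at 8 h without overlap between the groups (33.1% in either direction), and 0.382% were so with a log2 difference below -1, as all 4 of these members were. Across all genes, limma called 6 (0.0433%), taking an absolute log2 difference above 1 and a Benjamini-Hochberg adjusted p no higher than 0.05. Of these, 4 were lower (0.0288%) and 2 higher (0.0144%) at 8 h, and 1712 (12.3%) had an unadjusted p under 0.05. Whether a member was among the 6 is not given, because no test is given for the members. The count of 6 ranged from 0 to 568 when 1 library was left out, with 568 without 8 h replicate 14. Because the members were chosen with this contrast in view, these counts place them among all genes and support nothing further. The median log2 difference of all genes was 0.10, and it was 0.0018 when the libraries were scaled to a common median ratio, a shift of -0.10 that leaves the direction of the 4 members as it was.

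*Ankrd1* (ENSMUSG00000024803, chr19:36111965-36119844, minus strand) encodes a nuclear ankyrin repeat protein of muscle and endothelium and is often read with *Ctgf* and *Cyr61* as a YAP target. It was listed at 0 TPM in both 1 h and all 3 8 h libraries, so no fold is given and it was not tested. The count table as used here does not list it.

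*Ajuba* (ENSMUSG00000022178, chr14:54567469-54577661, minus strand) encodes a LIM protein that restrains LATS kinases at cell junctions under tension. It stood at 12.4 and 12.3 TPM at 1 h and at 15.4, 10.6 and 15.6 TPM in 8 h replicates 13, 14 and 15. The 8 h libraries lay on both sides of those at 1 h, and the log2 difference was 0.13 ± 0.19 (SE).

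The genes of the effectors themselves were the most abundant members and their time points overlapped. *Yap1* (ENSMUSG00000053110, chr9:7931999-8004596, minus strand) stood at 61.1 and 58.7 TPM at 1 h and at 74.1, 55.0 and 73.6 TPM for 8 h replicates 13, 14 and 15. Its means were 59.9 ± 1.70 TPM (SD, n = 2) and 67.5 ± 10.9 TPM (SD, n = 3), with a log2 difference of 0.16 ± 0.15 (SE). Replicate 14 was the lowest library of all and replicates 13 and 15 the highest, so that the 8 h libraries of the 2 identifier series stood on either side of those at 1 h. *Wwtr1* (ENSMUSG00000027803, chr3:57455649-57575910, minus strand), which encodes TAZ, stood at 63.1 and 44.8 TPM at 1 h and at 48.5, 53.8 and 61.7 TPM at 8 h. Its 1 h libraries enclosed all 3 libraries at 8 h, and the log2 difference was 0.03 ± 0.18 (SE).

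*Tead1* (ENSMUSG00000055320, chr7:112679318-112906807, plus strand) encodes a DNA-binding partner of YAP and TAZ. It stood at 77.3 and 23.5 TPM in 1 h replicates 1 and 2 and at 27.7, 26.6 and 24.3 TPM in 8 h replicates 13, 14 and 15. The 1 h replicates were further apart than the time points, with a mean of 50.4 ± 38.1 TPM (SD, n = 2) against 26.2 ± 1.70 TPM (SD, n = 3). The log2 difference of -0.69 ± 0.46 (SE) rested on 1 h replicate 1, since it was 0.15 without that library. In the deposited tables the ratio of coverage to FPKM for *Tead1* was 0.181 to 0.634, against 2.09 to 7.18 for the other detected members, so its TPM is a less certain level than theirs.

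*Srf* (ENSMUSG00000015605, chr17:46546839-46556162, minus strand) stood at 16.0 and 18.5 TPM at 1 h and at 23.1, 17.0 and 21.1 TPM in 8 h replicates 13, 14 and 15. The mean was 17.2 ± 1.75 TPM (SD, n = 2) at 1 h and 20.4 ± 3.12 TPM (SD, n = 3) at 8 h, with a log2 difference of 0.22 ± 0.16 (SE). Replicate 14 lay between the 1 h libraries. A microRNA gene, mmu-mir-6976, overlaps *Srf* on the same strand, with a mean of 0.983 TPM.

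By mean TPM at 1 h, the order of the members was *Yap1*, *Wwtr1*, *Tead1*, *Cyr61*, *Amotl2*, *Ctgf*, *Srf*, *Ajuba*, *Thbs1* and *Ankrd1*. Several neighbours could not be ordered. The ranges of *Yap1* and *Wwtr1* crossed, *Tead1* spanned from above *Yap1* to below *Cyr61*, the range of *Cyr61* enclosed that of *Amotl2*, and that of *Srf* enclosed the lower value of *Ctgf*. At 8 h the order was *Yap1*, *Wwtr1*, *Tead1*, *Srf*, *Cyr61*, *Amotl2*, *Ajuba*, *Ctgf*, *Thbs1* and *Ankrd1*. *Ctgf*, next to *Srf* at 1 h, stood at 8 h next to *Thbs1*, and all its libraries lay below those of *Ajuba*. *Srf*, *Cyr61*, *Amotl2* and *Ajuba* overlapped with their neighbours at 8 h, as *Yap1* and *Wwtr1* did.

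**Figure D2:**
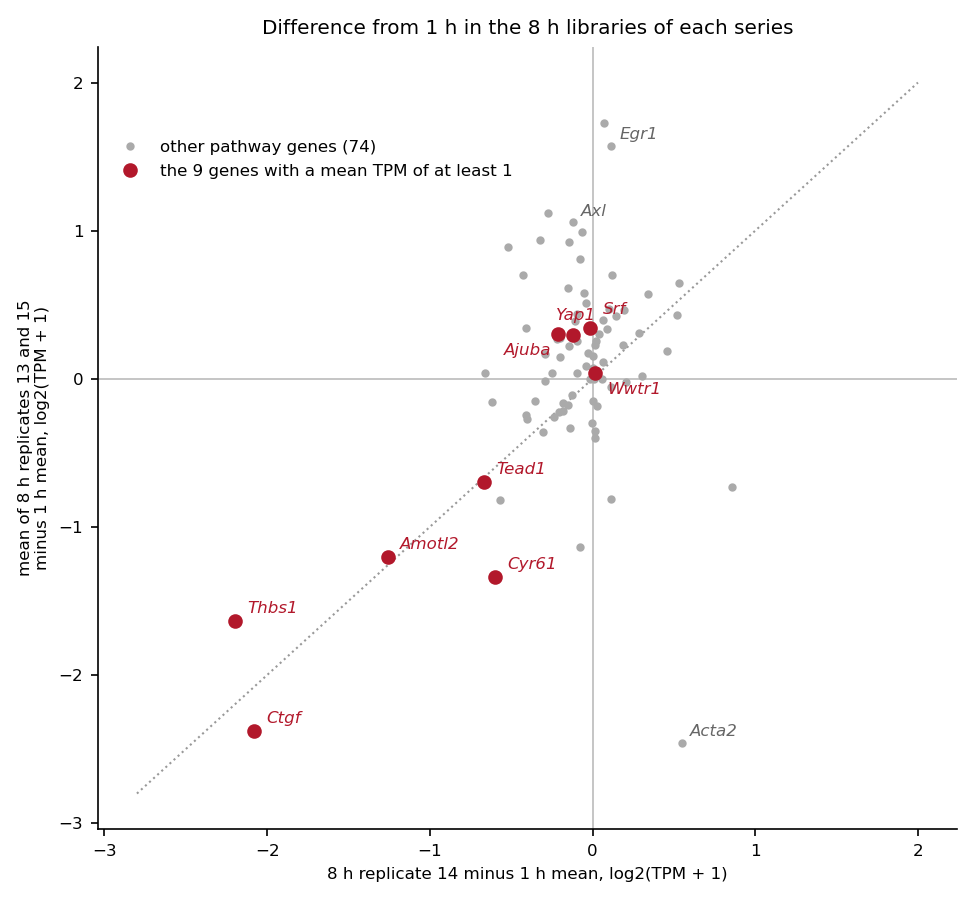
Difference from the 1 h mean on the log2(TPM + 1) scale in 8 h replicate 14 (horizontal axis, identifier series 1) and in the mean of 8 h replicates 13 and 15 (vertical axis, series 2), for the 9 detected members (red) and 74 other genes of the pathways (grey), with the line of equal values dotted; both axes share the same 1 h libraries. *Ctgf*, *Thbs1*, *Amotl2* and *Cyr61* are below 0 on both axes, whereas *Acta2* is at 0.55 on the horizontal and -2.46 on the vertical axis.

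The count table, which lists 7599 genes, holds 6 of the 10 members: *Ctgf*, *Cyr61*, *Amotl2*, *Ajuba*, *Wwtr1* and *Srf*. Its columns carry library identifiers, to which the sample labels give the replicates. The 8 h columns do not follow the TPM tables of the same replicate. For each gene, the log2 ratio of a column to a TPM table was taken. The ratio of a 1 h column to its own table, and then the median over genes, were removed from it. The column named 8 h replicate 13 was then within 0.1 log2 of the TPM table of replicate 14 for 77.3% of 7340 genes. For its own table the share was 25.0%. By label, that column is of series 2 and the table of replicate 14 of series 1. The column named replicate 15 matched the table of replicate 13 for 76.0% and its own for 39.8%. The column named replicate 14 matched none of the tables well (36.4% at most, for 1 h replicate 2). The 1 h columns matched their own tables for 77.2%, which is a single value, since each served as the reference of the other. Columns are therefore named here by the replicate that the labels give them. A column and a TPM table of one name are not taken as the same library. Whether the columns, the labels or the TPM tables are misassigned was not tested.

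By counts scaled to CPM (counts scaled to the column total), *Ctgf* stood at 31.5 and 30.6 in the 1 h columns and at 6.21, 19.4 and 4.25 in the 8 h columns 13, 14 and 15, from 441, 506, 112, 281 and 79 reads. Its log2 fold change was -1.68 ± 0.59 (SE), and -2.58 ± 0.23 without column 14. *Cyr61* stood at 55.8 and 50.5 CPM at 1 h and at 34.3, 27.6 and 16.7 CPM at 8 h, with a log2 fold change of -1.05 ± 0.28 (SE) and -1.07 ± 0.35 without column 14. *Ctgf* and *Cyr61* were thus lower in all 8 h columns, as 7.05% of the 7590 genes tested were.

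*Amotl2* did not keep its separation by counts. It stood at 93.9 and 93.3 CPM at 1 h and at 42.2, 108.9 and 36.0 CPM at 8 h. Column 14, which matched none of the TPM tables well, thus lay above both 1 h columns. The log2 fold change was -0.62 ± 0.46 (SE) over all columns and -1.27 ± 0.13 without column 14. The time points of the other 3 members overlapped, with log2 fold changes of 0.13 ± 0.22 for *Ajuba*, -0.075 ± 0.12 for *Wwtr1* and 0.19 ± 0.15 for *Srf*. edgeR called 0 of the 7590 genes (0%), with 199 at an unadjusted p under 0.05, and DESeq2 and limma-voom also called 0, with 227 and 178 at an unadjusted p under 0.05.

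**Figure D3:**
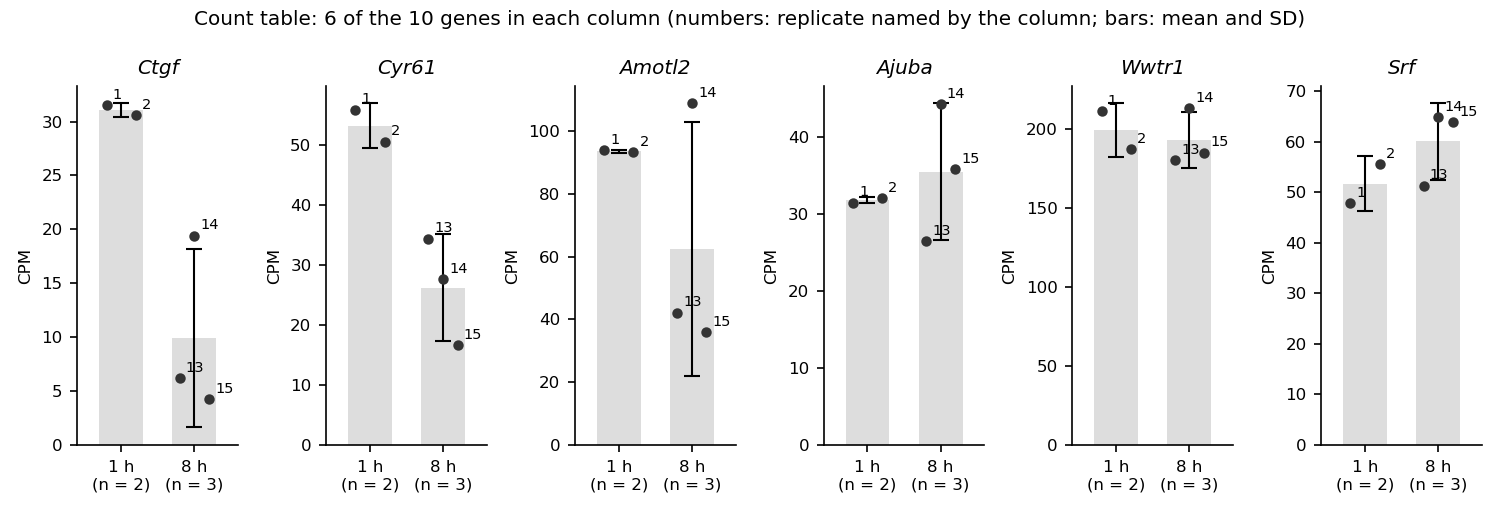
CPM of the 6 members held by the count table, with points marked by the replicate that the labels give the column. Bars are the mean and SD of the 1 h (n = 2) and 8 h (n = 3) columns, and each vertical axis starts at 0. In *Ctgf* and *Amotl2* the column named 14 stands well above columns 13 and 15, at 19.4 and 108.9 CPM.

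The genes whose pattern over the 5 TPM tables was most like that of *Ctgf* were sought among 12192 genes, by the root mean square difference of log2(TPM + 1) after each gene's mean was removed. The nearest were *AL589742.1* (0.169), the member *Thbs1* (0.386) and *Hist2h2aa1* (0.398), a histone gene with near-identical copies whose reads are uncertain. *AL589742.1* stood at 6.53 and 6.73 TPM at 1 h and at 0.535, 0.464 and 0.694 TPM at 8 h. *Amotl2* was 10th and *Cyr61* 19th in this order. For *Cyr61* the nearest genes were *Nr1d2* (0.0750), a nuclear receptor of the circadian clock, *Ikbke* (0.0919), a kinase of innate immune signalling, and *Tmod1* (0.0920), which caps actin filaments. *Nr1d2* stood at 41.4 and 35.6 TPM at 1 h and at 14.9, 28.2 and 17.2 TPM at 8 h, with replicate 14 in between as for *Cyr61*. *Amotl2* was the nearest other member, in place 182. *Ankrd1*, at 0, has no pattern to compare.

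The wider pathway was described by 88 other genes in 7 lists, drawn up by known role, with *Lats2* and *Ptpn14* in 2 of them. Of these, 74 were tested and 0 were called by limma, with 5 at an unadjusted p under 0.05. By groups that did not overlap, 12 were higher and 8 lower at 8 h and 54 overlapped, against 23.7% higher and 9.43% lower of all genes. Their median log2 difference was 0.098, near the 0.10 of all genes. In the count table, edgeR called 0 of 53, with 1 at an unadjusted p under 0.05.

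No other YAP-TEAD target on the list stood as far below its 1 h level as *Ctgf* did. Of 18 such genes, all tested, 2 were higher and 3 lower at 8 h without overlap and 13 overlapped. The shares of all genes were 23.7% higher and 9.43% lower. The median log2 difference of the 18 was 0.028. *Igfbp3*, an insulin-like growth factor binding protein and the most abundant of them, stood at 1377 and 1145 TPM at 1 h and at 1256, 1449 and 1223 TPM at 8 h. *Asap1*, a regulator of ARF GTPases, and *Gadd45a*, a stress-induced gene, were below both 1 h libraries at 8 h, with log2 differences of -0.25 (adjusted p = 0.403, limma) and -0.34 (adjusted p = 0.457, limma). *Foxf2*, a forkhead factor near 1 TPM, was 0.30 higher (adjusted p = 0.492, limma), and *Fjx1*, a secreted kinase-like protein, overlapped, at 37.5 TPM in 8 h replicate 14 and 67.6 and 72.4 TPM in replicates 13 and 15.

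The paralogs of the CCN and thrombospondin members were low or level. Of 7, 2 were tested. *Thbs2* stood at 9.45 and 9.16 TPM at 1 h and 9.83, 7.98 and 13.4 TPM at 8 h, a range in which *Thbs1* also stood at 1 h. *Thbs3* stood at 24.8 and 26.9 TPM at 1 h and 28.6, 27.1 and 27.4 TPM at 8 h, with a log2 difference of 0.095 (adjusted p = 0.663, limma). The 4 other CCN genes (*Nov*, *Wisp1*, *Wisp2* and *Wisp3*) and *Thbs4* had means below 1 TPM, so *Ctgf* and *Cyr61* were the CCN genes detected above that level in these cells.

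Among the 24 Hippo kinases and upstream regulators, all tested, 4 were higher and 2 lower without overlap, with a median of 0.076. Of all genes, 23.7% were higher and 9.43% lower. *Map4k4*, the most abundant kinase of the list, stood at 380 and 362 TPM at 1 h and at 312, 327 and 353 TPM at 8 h. *Taok2*, which activates MST kinases, had a log2 difference of 0.50 ± 0.13 (SE, adjusted p = 0.309, limma), and *Amotl1*, a relative of *Amotl2*, one of 0.38 (adjusted p = 0.369, limma). *Amotl1* was thus higher in all 8 h libraries (56.9 to 69.9 TPM against 47.2 and 52.1 TPM), where *Amotl2* was lower. *Nf2*, the tumour suppressor merlin, overlapped at 84.6 to 101.4 TPM, and *Tnik* stood at 98.6 TPM in 8 h replicate 14 against 52.3 and 50.4 TPM in replicates 13 and 15.

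Of the other TEAD genes and VGLL cofactors, 3 of 7 were tested. *Vgll4*, which competes with YAP for TEAD, stood at 82.5 and 99.3 TPM at 1 h and at 149.3, 131.4 and 135.4 TPM at 8 h. The groups did not overlap, and the log2 difference of 0.61 ± 0.12 (SE) had an unadjusted p of 0.00225 and an adjusted p of 0.262 (limma). *Tead2* was the most abundant of its family in 4 of the 5 libraries, at 56.1 and 57.4 TPM at 1 h and 94.0, 41.9 and 91.8 TPM at 8 h, and 8 h replicate 14 was its lowest library. *Tead3* stood at 5.60 to 12.2 TPM and *Tead4* at or below 0.266 TPM.

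No gene on the SRF side was called either. Of the 6 SRF cofactors, 5 were tested, and *Mkl1* and *Mkl2* were lower at 8 h without overlap, by -0.21 (adjusted p = 0.473, limma) and -0.11 (adjusted p = 0.620, limma). *Elk1*, a ternary complex factor, was between 23.5 and 23.7 TPM in every library, *Elk3* and *Elk4* overlapped, and *Myocd*, the myocardin of muscle, was listed at 0. Of 21 actin cytoskeleton targets 18 were tested, with 4 higher and 1 lower without overlap (23.7% and 9.43% of all genes) and a median of 0.022. *Cfl1*, which severs actin filaments, stood at 3019 to 3524 TPM, *Actb* at 1210 to 1850 TPM and *Actg1* at 1384 to 2464 TPM. *Fhl2*, a LIM protein known to act with SRF, stood at 3.60 and 4.49 TPM at 1 h and at 1.90, 2.39 and 1.81 TPM at 8 h, with a log2 difference of -0.73 ± 0.19 (SE, adjusted p = 0.304, limma), and *Myl9*, a myosin light chain, had one of 0.51 (adjusted p = 0.405, limma).

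The smooth muscle actin gene *Acta2*, named after its values were seen, stood at 79.4 and 75.8 TPM at 1 h, at 114.0 TPM in 8 h replicate 14 and at 11.2 and 15.8 TPM in replicates 13 and 15. It was thus low in both libraries of series 2 and highest in 8 h replicate 14, a single library, whereas *Ctgf*, *Thbs1* and *Amotl2* were low in all 3. Of the 7 SRF immediate early targets, 6 were tested and all 6 overlapped between the time points. *Egr1* stood at 43.8 and 54.7 TPM at 1 h, at 53.0 TPM in 8 h replicate 14 and at 127.8 and 170.6 TPM in replicates 13 and 15. *Fos* stood at 31.0 and 35.7 TPM at 1 h and at 56.0, 22.9 and 70.0 TPM at 8 h, and *Ier2* at 19.8 and 25.4 TPM and at 40.7, 17.8 and 47.5 TPM. Not all members of the list stood so: *Egr2*, named after its values were seen, was at 4.18 and 5.11 TPM at 1 h and at 4.72, 3.89 and 5.77 TPM at 8 h. The median log2 difference of this list was -0.24 in replicate 14 and 0.96 in replicates 13 and 15, against 0.013 and 0.14 for all genes.

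**Figure D4:**
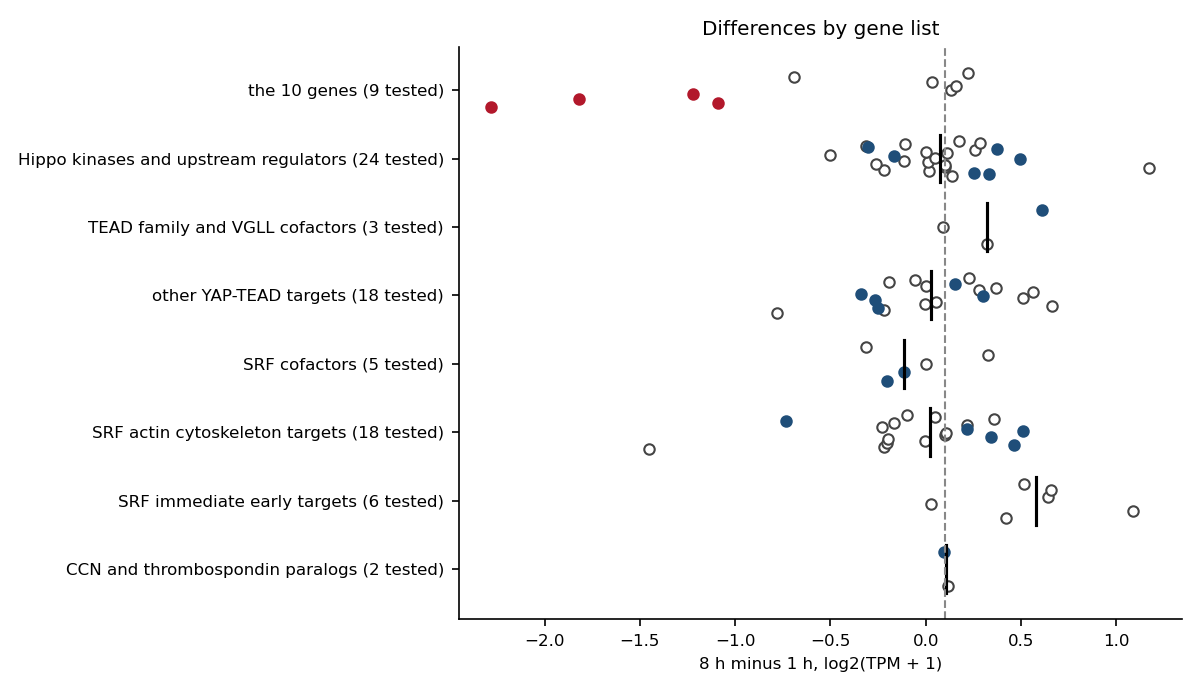
Log2 difference, 8 h minus 1 h, on the log2(TPM + 1) scale of each tested gene in the 7 pathway lists, with a line at each list's median, and of the 9 detected members in the top row; filled points are genes whose time points do not overlap, and the dashed line marks the median of all genes, 0.10. *Ctgf*, *Thbs1*, *Amotl2* and *Cyr61* lie at -2.28 to -1.09, and list medians lie between -0.11 and 0.58.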

How the data were processed

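RNA-seq of SVZ cells gave 5 libraries, 1 animal each per the study's methods (TruSeq stranded, poly-A selected, paired-end). The authors processed reads with nf-core/rnaseq, STAR and featureCounts on GRCm38, and the submitters' processing notes also name bcl2fastq 2.19.1.403, CASAVA and DESeq2. The deposited count table holds raw read counts per gene for 7599 genes, with column totals of 13988166 to 18572154 that cover 51.3% to 56.7% of TPM. It is described as filtered, by a rule the sources do not give, and lists 53.9% of the genes with a mean of at least 1 TPM. The deposited tables of the libraries hold TPM, FPKM and per-base coverage per gene, in the layout of StringTie. Which tool made them is not given in the sources. The count table had 0 columns of other samples and 0 rows lacking a gene name. TPM of 11 to 13 genes with several entries per table was summed. The deposited coverage and FPKM values served to show the depth behind a value (median ratio per library 4.00 to 5.21).

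Groups came from the labels. The test of 8 h against 1 h was limma 3.58.1 (intensity trend, R 4.3.3) on log2(TPM + 1) for genes with a mean of at least 1 TPM, with Benjamini-Hochberg adjustment over all of them and a call where the absolute log2 difference exceeded 1 at an adjusted p no higher than 0.05. Counts were tested with edgeR 4.0.16 (quasi-likelihood, TMM, filterByExpr), and DESeq2 1.42.0 and limma-voom were alternatives. The SE given with an edgeR fold change was derived as its absolute log2 value over the square root of the quasi-likelihood F statistic. Replicate columns differed beyond sampling noise (chi-square per degree of freedom at least 10.2). The scripts were tested on simulated data. Named genes are all 10 members and, per list, every gene called, the 3 most abundant, the 2 with the largest difference among those without overlap, and the 3 genes most like *Ctgf*, *Cyr61* and *Ankrd1*. Symbols of the form Gm and a number, or ending in Rik, were not named. The members and lists were chosen with earlier results of these data known. Promoter windows are those of RefSeq.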

Additional observations from a re-analysis of the deposited data

How the results depend on the processing

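Over 9 alternatives of the TPM values, the log2 difference ranged from -2.58 to -2.08 for *Ctgf*, -2.22 to -1.63 for *Thbs1*, -1.35 to -1.12 for *Amotl2* and -1.34 to -0.60 for *Cyr61*, with 1 sign throughout, and from -1.53 to 0.15 for *Tead1*. Over 11 alternatives of the counts it ranged from -2.58 to -0.71 for *Ctgf*, -1.30 to -0.79 for *Cyr61* and -1.27 to 0.18 for *Amotl2*. The upper ends for *Ctgf* and *Amotl2* came with the labelled series as a term, and series 1 alone gave nearly the same. Both settings rest on the 8 h column named replicate 14, which matched no TPM table well. In the other settings the highest values were -1.32 for *Ctgf* and -0.34 for *Amotl2*, without the column named replicate 15. The count of genes called by limma, 6 of all genes, was 19 with the labelled identifier series as a term. It was 0 with no filter on low values (23583 genes tested, 2371 at an unadjusted p under 0.05). With 1 library left out it ranged from 0 to 568. It was 0 without 8 h replicate 15 (856 at an unadjusted p under 0.05) and 1 without 8 h replicate 13. Without 8 h replicate 14, where time and series cannot be told apart, it was 568. The log2 difference of *Ctgf* was -2.24 without 1 h replicate 1 and -2.32 without 1 h replicate 2. Calls among the 74 pathway genes ranged from 0 to 5 with 1 library left out, the 5 being *Acta2*, *Axl*, *Egr1*, *Junb* and *Myof* without 8 h replicate 14. For counts, 145 genes were called in the columns named for series 1 alone, no member among them, and 0 in every other setting tried. The only 8 h column of that fit was the one named replicate 14, which matched no TPM table. Where a group kept 1 library, that library was assumed to vary like the others. The cause of these changes was not tested. No paired analysis was possible because the groups share no replicate number. With 2 and 3 libraries a group, the SD is poorly known, and depth limits *Tead1*, with a coverage of 2.10 to 3.63 reads per base at 8 h, and *Thbs1*, with 3.78 to 7.20.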
